A study of Homo sapiens with 9 samples.

Results

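The genes of glycolysis and of the transcriptional response to low oxygen were followed as 38 members of a table of 42717 genes. The members were chosen by symbol, as the glucose and lactate transporters, the enzymes from hexokinase to lactate dehydrogenase, the oxygen sensors and alpha subunits of the hypoxia-inducible factors (HIFs), and well-known HIF target genes. No measured value enters that rule, although the set was drawn up with earlier results of these data known. They were measured by strand-specific mRNA sequencing, with 3 libraries per line, in 3 sublines (S2-007, S2-028 and S2-020) of SUIT-2, a human pancreatic ductal adenocarcinoma (PDAC) cell line. All cells were untreated and grown in 6-well plates in DMEM with 10% inactivated fetal bovine serum. The study places maspin, a serpin encoded by SERPINB5, in the nucleus and cytoplasm of S2-007 (panMaspin) and in the cytoplasm of S2-028 (cytMaspin), whereas S2-020 carries little of it. Setting S2-028 against S2-007 addresses the transcriptome that goes with each localization. The oxygen tension of the cultures is not given in the sources used here beyond standard incubator conditions. Each line is a single subline, so what goes with maspin and what goes with the line cannot be told apart.

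Glycolysis splits glucose into pyruvate in the cytosol, and cells that reduce the pyruvate to lactate export it through monocarboxylate transporters. HIF alpha subunits are hydroxylated by the EGLN prolyl hydroxylases when oxygen is present and are then degraded. In low oxygen they persist, pair with ARNT and raise the transcription of glycolytic enzymes and of genes for vessel growth, pH control and mitophagy. Much of this regulation acts on the HIF proteins, which RNA counts do not measure. PDAC is known as a poorly vascularized and strongly glycolytic tumor.

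Library totals lay between 60328748 and 86253923 counts. Levels are given in CPM, counts scaled to library size and normalized by the trimmed mean of M-values. SERPINB5 had 212 ± 9.10 CPM (SD, n = 3) in S2-007, 6.55 ± 0.428 in S2-020 and 27.7 ± 2.75 in S2-028. The epithelial markers EPCAM, KRT8, KRT18, KRT19 and CDH1 were detected in every library, and their summed level was 9318 to 9813 CPM in S2-007, 4266 to 5382 in S2-020 and 14374 to 16868 in S2-028. The single markers differed by unlike amounts. For S2-007, S2-020 and S2-028, KRT8 averaged 4812, 2911 and 8447 CPM and KRT18 2015, 1682 and 4839. KRT19 averaged 2123, 103 and 1933 CPM, EPCAM 527, 122 and 421, and CDH1 54.2, 4.54 and 112. Markers of fibroblasts summed to at most 5.75 CPM and those of acinar cells to at most 1.43 CPM in any library. Endothelial markers reached 10.0 CPM, most of it PECAM1. Leukocyte markers reached 44.5 CPM, most of it CD68, and the T cell marker CD3E averaged at most 0.332 CPM. The epithelial sum and CD68 differed between lines, and their part in the results that follow was not tested. In bulk RNA, fewer cells that express a gene and less of its RNA per cell cannot be told apart. The labels do not say that the 3 libraries of a line came from separate cultures, so the p-values measure the spread between these libraries, which may be technical.

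The members together took 1.62 ± 0.0413% of all counts in S2-007 (SD, n = 3), 1.93 ± 0.00880% in S2-020 and 1.69 ± 0.0177% in S2-028. The ranges of the lines did not overlap, and each comparison gave p = 0.1 in a two-sided exact permutation test, the smallest that 3 libraries against 3 allow. This sum is weighted to the most abundant members and says little of the others. In S2-007 replicate 1, PKM had 306579 counts and GAPDH 208737, beside 2351 for VEGFA and 372 for ADM. A gene was called when its adjusted p was under 0.05 in the edgeR quasi-likelihood test over all genes and it differed by at least 1.5-fold in either direction. CA9, a carbonic anhydrase often used as a hypoxia marker, had 0 to 10 counts per library and failed the filter on low counts, so 37 members were tested. Between S2-028 and S2-007, 14 of the 37 members were called, 9 higher and 5 lower in S2-028. The share over all genes tested was 18.4%, with 10.2% called higher and 8.19% lower. Between S2-020 and S2-007, 14 members were called, 10 higher and 4 lower in S2-020, against 21.6% of all genes, 9.57% higher and 12.1% lower. Between S2-028 and S2-020, 15 members were called, 5 higher and 10 lower in S2-028, against 22.2% of all genes, 12.1% higher and 10.1% lower. Without the fold limit, the edgeR adjusted p was under 0.05 for 32, 31 and 30 of the 37 members in the same order of comparisons. Over all genes this held for 33.9%, 40.2% and 40.4%, and the genes were not matched for level. The 3 comparisons share libraries and are not independent of each other.

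The members differed in both directions. The median log2 difference over the 37 members was 0.25 for S2-028 against S2-007, 0.25 for S2-020 against S2-007 and -0.18 for S2-028 against S2-020. Over all genes tested it was 0.0020, -0.053 and 0.025. Without regard to sign, the median size of the log2 difference was 0.43, 0.44 and 0.51 over the members and 0.35, 0.39 and 0.39 over all genes. Separated lines, with no overlap between their libraries, were seen for 31, 30 and 30 of the 37 members. Of all genes, 43.3%, 48.5% and 48.9% were so separated. Here too the genes were not matched for level, on which such separation depends. S2-020 had the highest mean of the 3 lines for 17 members, S2-028 for 11 and S2-007 for 9. S2-007 had the lowest mean for 18 members, S2-028 for 13 and S2-020 for 6. As shares, S2-020 was highest for 45.9% of the members and 33.5% of all genes tested, S2-007 was lowest for 48.6% and 30.8%, and S2-020 was lowest for 16.2% and 37.5%. The plot of all members by library shows that the lines were not ordered alike from gene to gene.

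**Figure D1:**
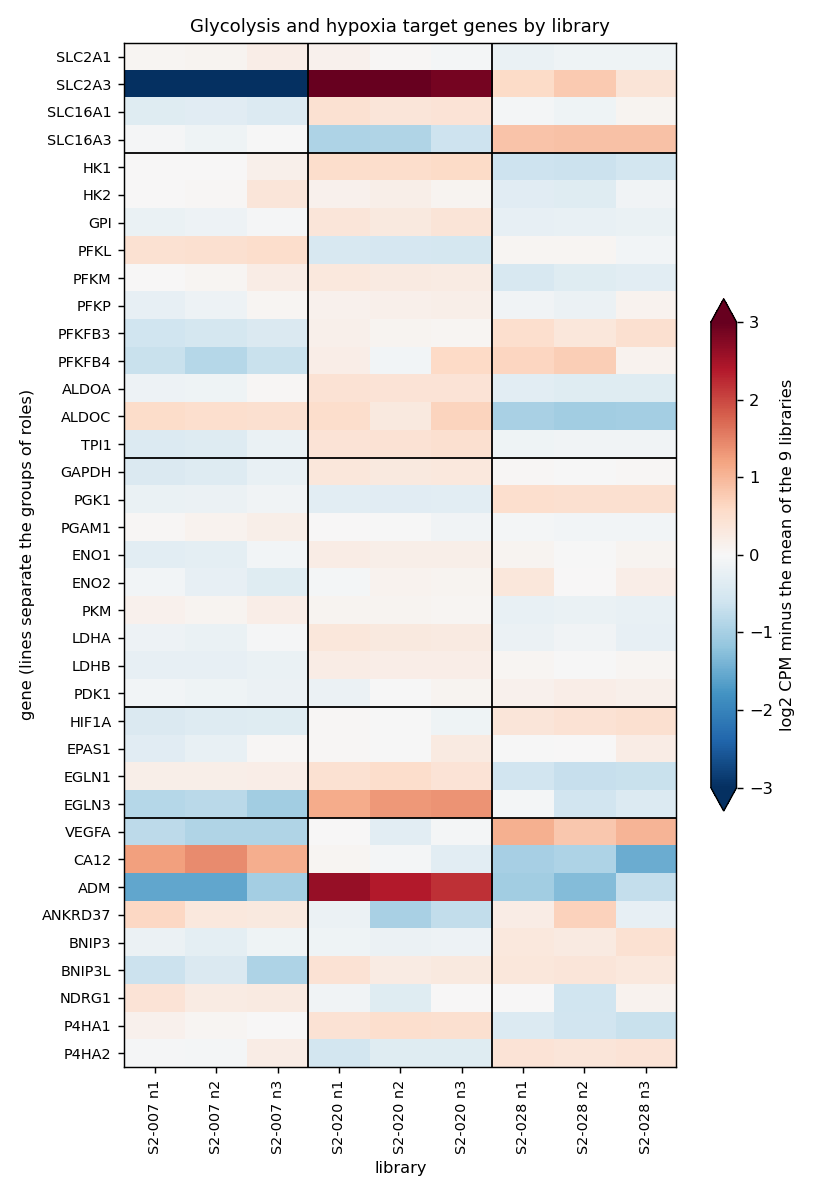
Heat map of the 37 members that passed the filter (rows, grouped by role) in the 9 libraries (columns), coloured by log2 CPM minus the mean of the gene over the 9 libraries, with the scale capped at 3 in either direction. SLC2A3 and ADM show the strongest contrast, with S2-020 high, whereas PGAM1 spans only 8.69 to 8.96 log2 CPM over the 9 libraries.

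Called in all 3 comparisons were 5 members, namely SLC2A3, SLC16A3, EGLN3, VEGFA and CA12. For EGLN3, 1 of the 3 calls lay just inside the fold limit. That call was lost under several other settings and without some libraries, as given below. A further 10 members were called in 2 comparisons and 8 in 1. The remaining 14 were called in none, among them SLC2A1, HK2, PFKP, ENO1, PKM, LDHA, LDHB, PDK1, BNIP3 and NDRG1, which include several of the best-known HIF targets. The same breakdown was not made for all genes. Whether the members were called in more comparisons than other genes therefore cannot be told from these counts.

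The core of the sequence that HIF binds is ACGTG or GCGTG. RefSeq (GRCh38.p14) promoter sequences were found for 33 members, of which 21 (63.6%) held at least 1 of these 5-base words on either strand in the 250 bases before the start site. The share over all 35116 promoters of the same length was 43.2%, and over those of the genes tested 48.8%. ACGTG alone occurred in 39.4% of the members' promoters, 18.5% of all promoters and 20.4% of those of the genes tested. GCGTG alone occurred in 36.4%, 32.2% and 37.6%, so the members' share of GCGTG was near that of the other sets. The 6 promoters printed here, 5′ to 3′ on the strand of the gene, are those of called members (ADM, EGLN3, ALDOC, PGK1) and of HIF targets called in no comparison (LDHA, BNIP3). They were picked after their values and matches were seen, so no relation between matches and calls can be read from them. Capitals mark the matches, read as ACGTG or GCGTG on the printed strand and as CACGT or CACGC on the other, and CACGTG is a match on both strands at once. ADM lies at chr11:10304823-10305072 (plus strand), EGLN3 at chr14:33951075-33951324 (minus), ALDOC at chr17:28576896-28577145 (minus), PGK1 at chrX:78103998-78104247 (plus), LDHA at chr11:18394313-18394562 (plus) and BNIP3 at chr10:131981924-131982173 (minus).
ADM: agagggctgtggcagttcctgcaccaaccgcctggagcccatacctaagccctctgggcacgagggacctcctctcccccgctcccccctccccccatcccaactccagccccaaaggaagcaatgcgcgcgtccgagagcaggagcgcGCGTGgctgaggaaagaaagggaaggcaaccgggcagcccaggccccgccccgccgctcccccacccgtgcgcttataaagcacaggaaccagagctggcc
EGLN3: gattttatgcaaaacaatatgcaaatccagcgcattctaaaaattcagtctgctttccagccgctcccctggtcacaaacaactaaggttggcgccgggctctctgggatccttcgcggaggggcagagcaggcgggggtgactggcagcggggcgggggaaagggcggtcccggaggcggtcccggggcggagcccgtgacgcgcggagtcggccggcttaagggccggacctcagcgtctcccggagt
ALDOC: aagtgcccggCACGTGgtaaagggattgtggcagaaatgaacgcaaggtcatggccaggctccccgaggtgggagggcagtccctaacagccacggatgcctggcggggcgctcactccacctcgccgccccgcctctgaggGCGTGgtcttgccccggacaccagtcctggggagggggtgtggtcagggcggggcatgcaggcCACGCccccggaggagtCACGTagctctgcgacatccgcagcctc
PGK1: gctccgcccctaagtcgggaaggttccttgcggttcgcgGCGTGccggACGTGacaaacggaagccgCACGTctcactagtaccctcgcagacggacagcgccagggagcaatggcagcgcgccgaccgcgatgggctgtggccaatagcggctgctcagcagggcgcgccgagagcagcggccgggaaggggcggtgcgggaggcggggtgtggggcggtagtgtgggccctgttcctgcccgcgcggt
LDHA: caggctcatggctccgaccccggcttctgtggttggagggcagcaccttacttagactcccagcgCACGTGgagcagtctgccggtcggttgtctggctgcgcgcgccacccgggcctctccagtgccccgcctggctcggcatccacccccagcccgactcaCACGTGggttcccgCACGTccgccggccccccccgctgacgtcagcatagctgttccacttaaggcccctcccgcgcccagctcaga
BNIP3: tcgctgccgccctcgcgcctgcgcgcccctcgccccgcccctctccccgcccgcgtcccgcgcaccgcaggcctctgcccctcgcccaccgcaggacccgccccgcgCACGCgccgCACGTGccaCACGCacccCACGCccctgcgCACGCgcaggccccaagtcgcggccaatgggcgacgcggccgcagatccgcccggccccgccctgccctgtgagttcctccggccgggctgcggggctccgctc
BNIP3 held 6 matches, ALDOC and LDHA 5 each, PGK1 3, ADM 1 and EGLN3 0. A match is a description of these letters and not a bound site, and no match says only that the words are not in this window. No entry was found for SLC2A3, SLC16A1, VEGFA, BNIP3L and NDRG1.

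Of the 4 transporters, 2 were called higher and 0 lower in S2-028 than in S2-007, 2 higher and 1 lower in S2-020 than in S2-007, and 1 higher and 1 lower in S2-028 than in S2-020. Over all genes, the share called in either direction was 18.4%, 21.6% and 22.2%, and 4 genes are too few to set against it. SLC2A3 encodes GLUT3, a high-affinity glucose carrier. Its level was 0.227, 0.309 and 0.407 CPM in the S2-007 libraries, 61.7, 48.2 and 36.0 CPM in those of S2-020, and 7.30, 8.44 and 6.41 CPM in those of S2-028. The S2-007 libraries, with 17 to 30 counts each, were the lowest, those of S2-020 were the highest, and no ranges overlapped. The log2 fold change of SLC2A3 was 7.24 ± 0.22 (SE) for S2-020 against S2-007 (edgeR adjusted p = 6.01e-16) and 4.55 ± 0.24 for S2-028 against S2-007 (edgeR adjusted p = 1.72e-12). These were the largest differences of any member. Of the 31-base words of its transcripts, 38.2% are shared with SLC2A14, so reads could be split between the paralogs, and SLC2A14 itself held 4 to 64 counts per library.

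SLC2A1, the gene of GLUT1, the carrier most often named as a HIF target, was called in no comparison. Its level was 191 ± 9.49 CPM in S2-007, 179.5 ± 11.6 in S2-020 and 158 ± 4.87 in S2-028 (SD, n = 3). The libraries of S2-028 lay below all others. Per kilobase of transcript, SLC2A1 stood at 56.5, 53.0 and 46.7 CPM in the 3 lines, against 0.0822, 12.7 and 1.93 for SLC2A3. SLC2A1 was thus the more abundant transcript of this pair in each line. SLC2A6, a gene of the same family that is not a member, averaged 27.4 ± 2.68, 189.6 ± 2.85 and 26.4 ± 3.26 CPM for S2-007, S2-020 and S2-028. It was not compared per kilobase.

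The lactate transporters diverged. SLC16A3 encodes MCT4, the low-affinity exporter of glycolytic cells, and SLC16A1 encodes MCT1, which carries lactate both ways. SLC16A3 measured 50.3, 47.4 and 51.6 CPM in S2-007, 27.2, 27.7 and 33.5 in S2-020, and 93.7, 95.2 and 95.7 in S2-028. The order S2-028 over S2-007 over S2-020 held without overlap. Its log2 fold change was 0.93 ± 0.06 (SE) for S2-028 against S2-007 (edgeR adjusted p = 9.06e-11), -0.79 ± 0.08 for S2-020 against S2-007 (edgeR adjusted p = 5.66e-08) and 1.69 ± 0.07 for S2-028 against S2-020 (edgeR adjusted p = 5.43e-13). SLC16A1 had another order, with 96.4 ± 2.70 CPM in S2-007, 122 ± 9.30 in S2-028 and 166 ± 4.78 in S2-020 (SD, n = 3), and was called higher in S2-020 than in S2-007 (log2 fold change 0.75 ± 0.05, edgeR adjusted p = 4.32e-10). Exons of SLC16A3 lie under CSNK1D over 18.5% of their length, and the strand setting of the counting is not given in the sources used here.

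**Figure D2:**
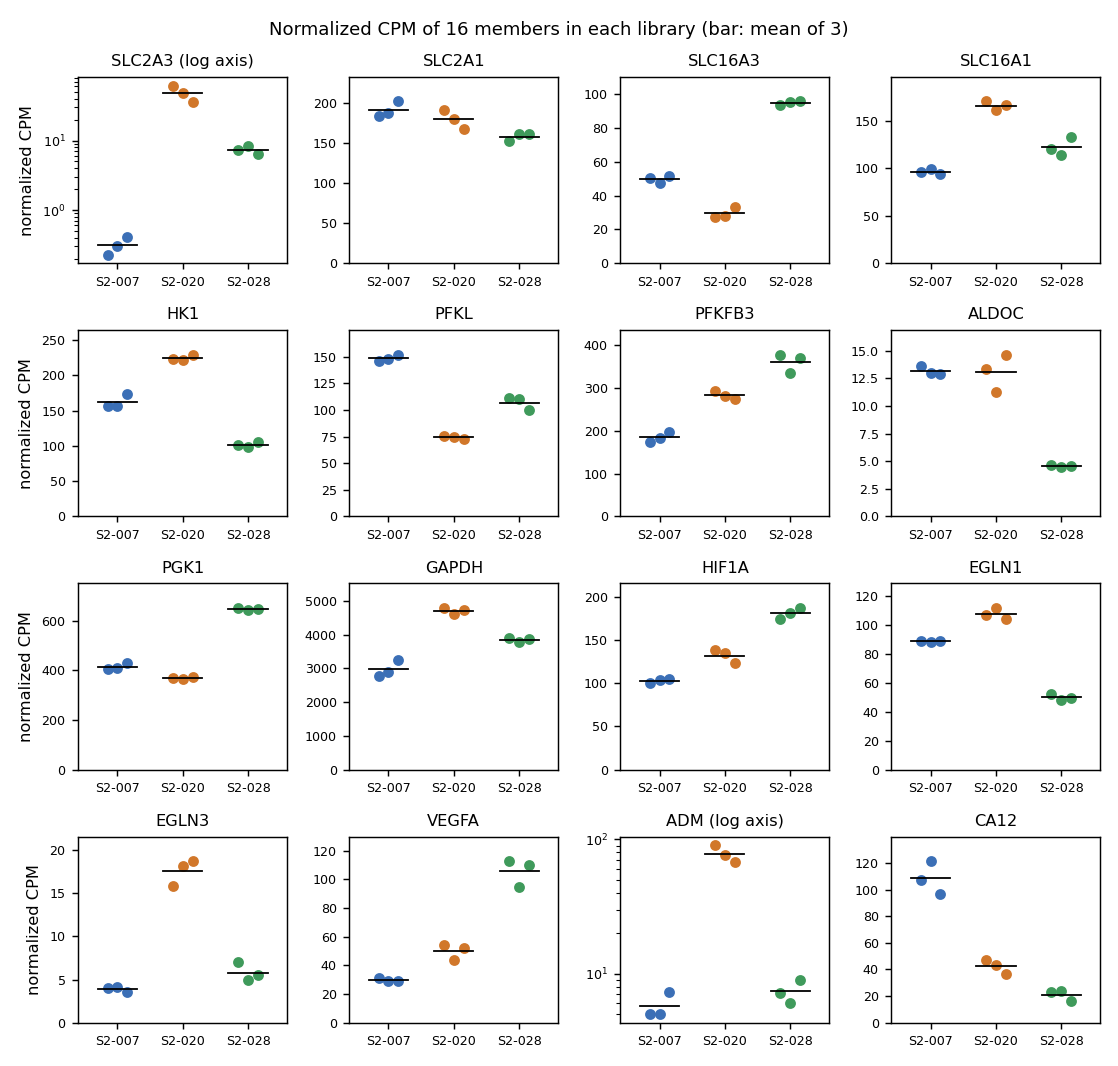
CPM of 16 members in each library (points, 3 per line) with the mean of each line (bars), 1 panel per gene, with a log axis for SLC2A3 and ADM and axes from 0 for the others. S2-020 is highest for SLC2A3, ADM and EGLN3, S2-028 for VEGFA, SLC16A3 and PGK1, and S2-007 for CA12 and PFKL.

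The upper part of glycolysis, from hexokinase to triosephosphate isomerase and with the enzymes that set fructose 2,6-bisphosphate, held 11 members. In S2-028 against S2-007, 2 were called higher and 2 lower, in S2-020 against S2-007, 3 higher and 1 lower, and in S2-028 against S2-020, 0 higher and 4 lower. Of all genes, 10.2% were called higher and 8.19% lower in the first of these comparisons. In the second the shares were 9.57% and 12.1%, and in the third 12.1% and 10.1%. HK1 encodes the hexokinase that most tissues use. It measured 156, 156 and 173 CPM in S2-007, 223, 222 and 229 in S2-020, and 101, 98.1 and 106 in S2-028. The 3 lines did not overlap, with S2-020 on top and S2-028 at the bottom. HK1 was lower in S2-028 than in S2-020 (log2 fold change -1.14 ± 0.05, edgeR adjusted p = 9.18e-13) and than in S2-007 (-0.67 ± 0.06, edgeR adjusted p = 1.33e-08). HK2, the isoenzyme that tumors often add, was called in no comparison, at 78.9 ± 10.8, 77.9 ± 2.49 and 59.5 ± 6.11 CPM for S2-007, S2-020 and S2-028.

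Phosphofructokinase, which commits sugar to glycolysis, is built from the subunits PFKL, PFKM and PFKP. PFKL measured 146, 148 and 152 CPM in S2-007, 75.8, 74.3 and 73.2 in S2-020, and 111, 109.8 and 99.6 in S2-028. All libraries of S2-020 lay below those of the other lines. It was lower in S2-020 than in S2-007 (log2 fold change -1.03 ± 0.05, edgeR adjusted p = 1.93e-12). PFKM was lower in S2-028 than in S2-020 (-0.67 ± 0.06, edgeR adjusted p = 1.29e-08), and PFKP, the platelet subunit, was called in no comparison at 405 ± 44.1, 486 ± 8.34 and 419 ± 45.0 CPM for S2-007, S2-020 and S2-028.

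PFKFB3 and PFKFB4 make fructose 2,6-bisphosphate, the strongest activator of phosphofructokinase. PFKFB3 measured 174, 183 and 196 CPM in S2-007, 293, 279.5 and 274 in S2-020, and 377, 334 and 368 in S2-028. The lines did not overlap, with S2-007 lowest and S2-028 highest. The log2 fold change of PFKFB3 was 0.97 ± 0.06 (SE) for S2-028 against S2-007 (edgeR adjusted p = 7.12e-11). For S2-020 against S2-007 it was 0.59 ± 0.05 (edgeR adjusted p = 1.69e-08), just inside the 1.5-fold limit, and leaving out S2-007 replicate 1 or S2-020 replicate 1 took it to 0.56 in either case, below the threshold. PFKFB4 had a lower level, 3.62 ± 0.285, 7.23 ± 1.76 and 8.68 ± 1.93 CPM for S2-007, S2-020 and S2-028, and was called higher in S2-028 (1.27 ± 0.17, edgeR adjusted p = 3.43e-06) and in S2-020 (0.96 ± 0.17, edgeR adjusted p = 1.00e-04) than in S2-007.

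Aldolase splits the 6-carbon sugar. ALDOC, whose promoter with 5 core words is shown above, measured 13.6, 13.0 and 12.9 CPM in S2-007, 13.4, 11.3 and 14.6 in S2-020, and 4.66, 4.48 and 4.52 in S2-028. S2-007 and S2-020 overlapped, and every S2-028 library lay well below both. The log2 fold change of ALDOC was -1.53 ± 0.12 for S2-028 against S2-007 (edgeR adjusted p = 2.18e-09) and -1.52 ± 0.13 for S2-028 against S2-020 (edgeR adjusted p = 1.07e-08). ALDOA, the main isoenzyme, was called only between S2-028 and S2-020 among the 3 comparisons (-0.76 ± 0.04, edgeR adjusted p = 1.80e-11), at 634 ± 11.9 and 1073 ± 8.99 CPM, with S2-007 between them at 760.0 ± 57.3. Gene models without a symbol lie over 89.8% of the exon bases of ALDOA and 18.2% of those of ALDOC. TPI1, triosephosphate isomerase, was called higher in S2-020 than in S2-007 (0.74 ± 0.05, edgeR adjusted p = 3.66e-10), at 925 ± 21.3 against 543 ± 46.6 CPM. GPI, which isomerizes glucose 6-phosphate, was called in no comparison, and its log2 difference of -0.56 for S2-028 against S2-020 lay just outside the fold threshold.

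The lower part of glycolysis with lactate formation held 9 members, with 1 called higher and 0 lower in each comparison, where 18.4% to 22.2% of all genes were called. GAPDH, which oxidizes glyceraldehyde 3-phosphate and is often used as a reference gene, measured 2788, 2889.6 and 3254 CPM in S2-007, 4798, 4621 and 4723 in S2-020, and 3892, 3771 and 3873 in S2-028. The lines did not overlap, so this reference transcript was not constant between the lines. GAPDH was called higher in S2-020 than in S2-007 (log2 fold change 0.63 ± 0.04, edgeR adjusted p = 3.47e-10). In the other 2 comparisons it differed by 0.37 and -0.29 and was not called. A gene model without a symbol lies over 32.8% of its exon bases, and another over 76.5% of those of LDHB.

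PGK1, the first ATP-forming step, was the called member in both comparisons of S2-028. Its level was 404, 408 and 428 CPM in S2-007, 370.2, 363 and 373 in S2-020, and 652, 642 and 646 in S2-028. Every S2-028 library lay above all others. The log2 fold change of PGK1 was 0.65 ± 0.05 against S2-007 (edgeR adjusted p = 2.35e-09) and 0.81 ± 0.04 against S2-020 (edgeR adjusted p = 1.29e-11). ENO1, ENO2, PGAM1, PKM, LDHA, LDHB and PDK1 were called in no comparison. Not called does not mean equal levels. Of the 9 members of this part, 8 had an edgeR adjusted p under 0.05 in S2-028 against S2-007. This held for 7 in S2-020 against S2-007 and for 6 in S2-028 against S2-020. The shares over all genes were 33.9%, 40.2% and 40.4% in the same order. Genes were not matched for level, and this part holds the most abundant members. ENO1 (enolase) averaged 1840 ± 170 CPM in S2-007, 2476 ± 35.9 in S2-020 and 2234 ± 85.3 in S2-028. PKM, pyruvate kinase, averaged 4155 ± 173, 3971 ± 49.4 and 3264 ± 32.0 CPM in the same order. LDHA, the subunit that favours lactate formation, averaged 1839 ± 103, 2471 ± 47.6 and 1776 ± 81.3 CPM. Although LDHA was not called, its libraries did not overlap between S2-020 and either other line, and its log2 difference was 0.40 against S2-007 and -0.48 for S2-028 against S2-020. PDK1, a kinase that inhibits pyruvate dehydrogenase, was low throughout at 9.97 ± 0.350, 10.6 ± 0.973 and 12.2 ± 0.316 CPM.

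Reads of PGAM1 are uncertain, because 48.6% of its 31-base words occur in PGAM4, which held 472 to 822 counts per library. Only 3 of the 160 named pseudogenes of the members have a row in the table, with at most 0.305% of the counts of their parent. Whether reads of the pseudogenes without a row were counted for the parent was not tested.

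The oxygen sensors and HIF alpha subunits were 4 members. In S2-028 against S2-007, 2 were called higher and 1 lower, in S2-020 against S2-007, 1 higher and 0 lower, and in S2-028 against S2-020, 0 higher and 2 lower. The share of all genes called in either direction was 18.4%, 21.6% and 22.2%, and 4 members are too few to set against it. HIF1A encodes HIF-1 alpha. It measured 101, 104 and 105 CPM in S2-007, 138, 134 and 123 in S2-020, and 174, 181 and 187 in S2-028. The lines did not overlap, with S2-007 lowest and S2-028 highest. HIF1A was called higher in S2-028 than in S2-007 (log2 fold change 0.81 ± 0.06, edgeR adjusted p = 2.45e-10). The antisense genes HIF1A-AS1 and HIF1A-AS3 and a further model lie over 13.9% of its exon bases. EPAS1, which encodes HIF-2 alpha, was called in no comparison and averaged 79.7 ± 10.3, 96.4 ± 10.6 and 94.7 ± 8.64 CPM for S2-007, S2-020 and S2-028.

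EGLN1 encodes PHD2, the main oxygen-dependent hydroxylase of HIF, and EGLN3 encodes PHD3, itself strongly induced by HIF. EGLN1 measured 88.6, 87.9 and 89.1 CPM in S2-007, 107, 112 and 104 in S2-020, and 52.1, 48.3 and 49.4 in S2-028. Every S2-028 library was the lowest. The log2 fold change of EGLN1 was -0.82 ± 0.06 for S2-028 against S2-007 (edgeR adjusted p = 8.71e-10) and -1.10 ± 0.06 for S2-028 against S2-020 (edgeR adjusted p = 1.03e-11). Of the exon bases of EGLN1, 69.3% lie under a GENCODE gene model that has no symbol. EGLN3 measured 3.99, 4.14 and 3.52 CPM in S2-007, 15.8, 18.1 and 18.7 in S2-020, and 7.04, 4.92 and 5.49 in S2-028. All S2-020 libraries lay above the others, and those of S2-028 above those of S2-007. EGLN3 was higher in S2-020 than in S2-007 (2.14 ± 0.12, edgeR adjusted p = 9.94e-12) and lower in S2-028 than in S2-020 (-1.59 ± 0.13, edgeR adjusted p = 7.06e-09). For S2-028 against S2-007 its log2 fold change was 0.59 ± 0.17 (edgeR adjusted p = 0.0117), just inside the 1.5-fold limit. Leaving out S2-028 replicate 1 took that EGLN3 value to 0.42 and leaving out S2-007 replicate 3 to 0.51, and the call was lost in both cases. Taken side by side, S2-028 had the highest HIF1A and the lowest EGLN1 of the 3 lines, whereas S2-020 had the highest EGLN3.

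Among the 10 other hypoxia targets, 9 were tested. In S2-028 against S2-007, 2 were called higher and 2 lower, in S2-020 against S2-007, 3 higher and 2 lower, and in S2-028 against S2-020, 3 higher and 3 lower. Called higher and lower over all genes were 10.2% and 8.19%, 9.57% and 12.1%, and 12.1% and 10.1% in the same order. ADM encodes adrenomedullin, a vasodilator peptide. Its level was 4.97, 5.02 and 7.33 CPM in S2-007, 90.6, 76.4 and 67.9 in S2-020, and 7.12, 6.03 and 9.00 in S2-028. S2-007 and S2-028 overlapped, and the S2-020 libraries stood far above both. For ADM the log2 fold change was 3.73 ± 0.13 for S2-020 against S2-007 (edgeR adjusted p = 3.81e-15) and -3.41 ± 0.12 for S2-028 against S2-020 (edgeR adjusted p = 3.00e-14). Between S2-028 and S2-007 the difference was 0.36 ± 0.17 and did not pass the test (edgeR adjusted p = 0.129).

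VEGFA, the main growth factor for blood vessels, had another order. It measured 31.4, 28.9 and 28.9 CPM in S2-007, 54.6, 43.5 and 52.1 in S2-020, and 112.9, 94.8 and 109.8 in S2-028. The lines were separated, with S2-028 on top. VEGFA was higher in S2-028 than in S2-007 (log2 fold change 1.83 ± 0.08, edgeR adjusted p = 5.06e-14) and than in S2-020 (1.08 ± 0.08, edgeR adjusted p = 1.68e-09), and higher in S2-020 than in S2-007 (0.72 ± 0.08, edgeR adjusted p = 3.99e-07).

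CA12 encodes a membrane carbonic anhydrase that, like CA9, hydrates carbon dioxide outside the cell. It measured 107, 121 and 96.7 CPM in S2-007, 47.3, 43.7 and 36.99 in S2-020, and 23.0, 24.1 and 16.4 in S2-028. The lines were separated in the reverse order to VEGFA. For CA12 the log2 fold change was -2.35 ± 0.11 for S2-028 against S2-007 (edgeR adjusted p = 3.66e-13), -1.38 ± 0.09 for S2-020 against S2-007 (edgeR adjusted p = 8.53e-11) and -1.01 ± 0.12 for S2-028 against S2-020 (edgeR adjusted p = 7.31e-07). CA9 was near the limit of detection in all lines, with 0, 10 and 4 counts in S2-007, 0, 0 and 2 in S2-020, and 0, 4 and 0 in S2-028, and no fold change is given for it. The limit was set at 3 counts per library and covers counting error only. Exons of CA9 lie under ARHGEF39 over 36.9% of their length.

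BNIP3 and BNIP3L encode mitophagy receptors. BNIP3L measured 18.9, 21.7 and 15.6 CPM in S2-007, 39.8, 34.9 and 36.1 in S2-020, and 37.5, 37.8 and 36.7 in S2-028. S2-007 lay below the other lines, which overlapped. BNIP3L was called higher in S2-028 (log2 fold change 1.00 ± 0.10, edgeR adjusted p = 6.45e-08) and in S2-020 (0.95 ± 0.10, edgeR adjusted p = 1.60e-07) than in S2-007. BNIP3, whose promoter holds the most core words of those printed, averaged 15.9 ± 0.929, 16.4 ± 0.145 and 23.3 ± 1.46 CPM for S2-007, S2-020 and S2-028. Its log2 difference of 0.55 between S2-028 and S2-007 lay just under the fold threshold.

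P4HA1 and P4HA2 encode alpha subunits of collagen prolyl 4-hydroxylase, and they moved in opposite directions between S2-028 and S2-020. P4HA1 measured 35.6, 33.8 and 32.7 CPM in S2-007, 43.9, 45.9 and 45.3 in S2-020, and 24.5, 21.8 and 20.5 in S2-028. P4HA2 measured 30.2, 29.6 and 36.1 CPM in S2-007, 21.3, 24.0 and 24.0 in S2-020, and 41.2, 39.8 and 41.1 in S2-028. Each gene separated the 3 lines, in reverse orders. Between S2-028 and S2-020 the log2 fold change was -1.01 ± 0.08 for P4HA1 (edgeR adjusted p = 2.59e-09) and 0.82 ± 0.08 for P4HA2 (edgeR adjusted p = 3.13e-08). P4HA1 was also called lower in S2-028 than in S2-007 (-0.61 ± 0.09, edgeR adjusted p = 8.49e-06), and that call was lost without S2-007 replicate 1, at -0.57, or without S2-028 replicate 3, at -0.55. The antisense gene P4HA2-AS1 lies over 12.1% of the exon bases of P4HA2.

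ANKRD37, an ankyrin repeat gene induced by HIF, had few counts, namely 111, 89 and 87 in S2-007, 60, 39 and 40 in S2-020, and 69, 100 and 49 in S2-028. It was called lower in S2-020 than in S2-007 (log2 fold change -1.09 ± 0.31, edgeR adjusted p = 0.00799). The call of ANKRD37 between S2-028 and S2-020 (0.91 ± 0.35, edgeR adjusted p = 0.0487) came with overlapping libraries and was lost when S2-020 replicate 2 (0.73), S2-020 replicate 3 (0.84), S2-028 replicate 1 (0.94) or S2-028 replicate 2 (0.65) was left out. Exons of ANKRD37 lie under UFSP2 over 54.7% of their length. NDRG1, a stress-response gene often used as a hypoxia marker, averaged 43.1 ± 2.93, 31.4 ± 4.02 and 31.8 ± 7.66 CPM for S2-007, S2-020 and S2-028 and was called in no comparison.

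**Figure D3:**
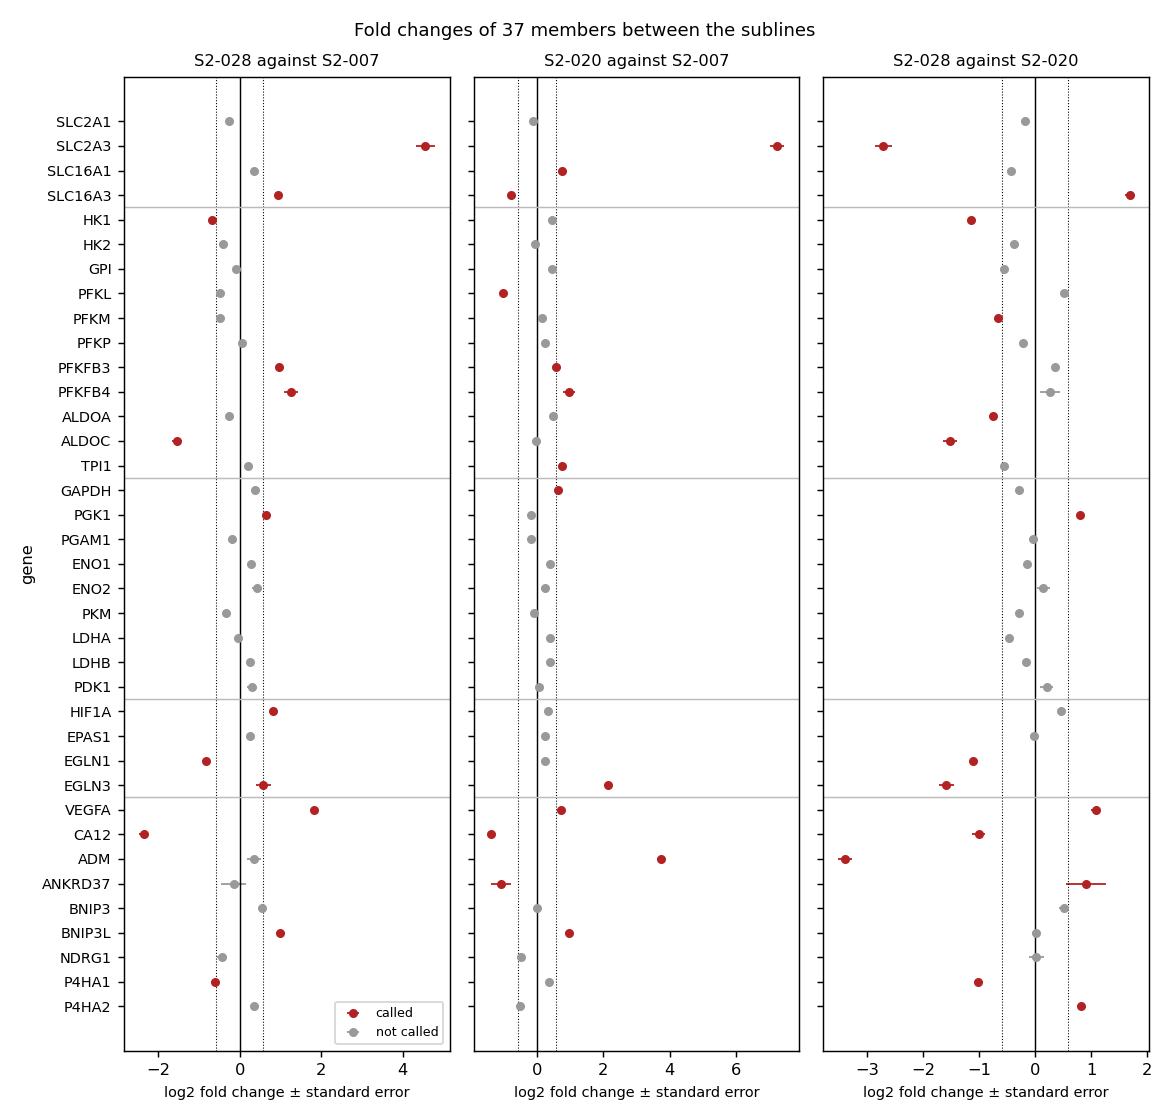
Log2 fold change of each of the 37 tested members (rows, by role) in the 3 comparisons (panels, each with its own horizontal scale), with SE bars; red points were called and dotted lines mark 1.5-fold in either direction. SLC2A3 and ADM reach 7.24 and 3.73 for S2-020 against S2-007, whereas most enzymes of lower glycolysis lie between the dotted lines.

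Related members were then set against each other within each library, which does not depend on library scaling. For each pair, the CPM per kilobase of the first gene was taken as a percentage of the sum of both. SLC16A3 (MCT4) made up 42.7 ± 1.75% of the transporter pair with SLC16A1 in S2-007, 20.4 ± 1.95% in S2-020 and 52.9 ± 1.79% in S2-028 (SD, n = 3). P4HA2 made up 36.1 ± 3.31%, 23.6 ± 0.860% and 52.5 ± 2.19% of the pair with P4HA1 in the same order of lines. These balances were therefore lowest in S2-020 and highest in S2-028. PFKM made up 39.6 ± 1.43%, 59.7 ± 0.225% and 39.5 ± 2.48% of the pair with PFKL, so that S2-020 alone had more PFKM than PFKL, while S2-007 and S2-028 overlapped (exact permutation p = 1.0, n = 3 per line). EGLN3 made up 6.56 ± 0.553%, 20.7 ± 1.63% and 15.6 ± 1.94% of the pair with EGLN1. SLC2A3 made up 0.144 ± 0.0346%, 19.1 ± 3.13% and 3.96 ± 0.519% of the pair with SLC2A1.

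The difference in log2 ratio between S2-028 and S2-020 was 2.13 ± 0.12 (SE) for SLC16A3 over SLC16A1, 1.84 ± 0.08 for P4HA2 over P4HA1, 0.75 ± 0.07 for HK2 over HK1 and -1.19 ± 0.09 for PFKM over PFKL. In each of these the libraries did not overlap, and the two-sided exact permutation test gave p = 0.1, the smallest possible with n = 3 per line. LDHB made up 39.3 ± 0.855%, 39.3 ± 0.289% and 44.5 ± 1.72% of the pair with LDHA for S2-007, S2-020 and S2-028. EPAS1 made up 37.1 ± 2.598%, 35.9 ± 3.88% and 28.6 ± 1.25% of the pair with HIF1A. The plot of pair balance shows these shifts by library.

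**Figure D4:**
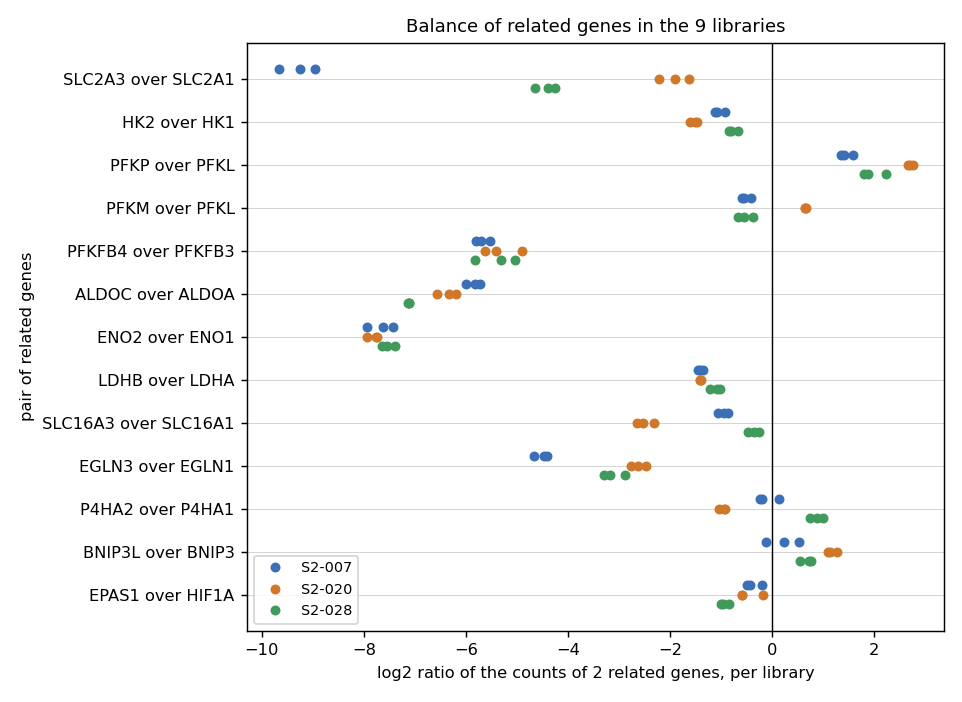
Log2 ratio of counts, not corrected for length, for 13 pairs of related members in each library (points, coloured by line), 1 row per pair. SLC16A3 over SLC16A1 and P4HA2 over P4HA1 are lowest in S2-020 and highest in S2-028, and LDHB over LDHA spans a narrow range.

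Per kilobase of transcript, the ranking of members was steadier than the differences. GAPDH, PKM, ENO1, LDHA and LDHB were the 5 highest members in every line, in that order. GAPDH stood at 2317 ± 191 CPM per kilobase in S2-007, 3669 ± 69.4 in S2-020 and 2993 ± 50.6 in S2-028 (SD, n = 3). ADM moved from rank 32 in S2-007 to rank 15 in S2-020, and SLC2A3 from rank 37 to rank 25. VEGFA moved from rank 27 in S2-007 to rank 18 in S2-028, and CA12 from rank 21 to rank 31.

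Neighbouring genes were examined because members share their chromosomal region with others. For each member, the median log2 fold change of its 50 nearest genes tested on the chromosome was taken as a description. In no comparison did it exceed 0.43 or fall below -0.31. Among the called members, 10 of 14 (S2-028 against S2-007), 12 of 14 (S2-020 against S2-007) and 13 of 15 (S2-028 against S2-020) differed from that median by 1.5-fold or more. A call already needs a 1.5-fold difference, and these medians were small. The counts were therefore largely set by the call itself, and no conclusion on the region is drawn from them. For PGK1 on chromosome X, the neighbours had a median of 0.30 for S2-028 against S2-007 and 0.43 against S2-020, with 15 and 14 of the 50 called higher, beside 0.65 and 0.81 for PGK1 itself. For PFKL on chromosome 21, the median was -0.28 for S2-020 against S2-007, with 12 of 50 called lower, beside -1.03 for PFKL. For GAPDH and TPI1, which lie close together on chromosome 12, the median was 0.27 for S2-020 against S2-007. The part of the region in these differences was not tested. For SLC2A3, ADM and VEGFA the neighbours' median was at most 0.26 in any comparison.

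**Figure D5:**
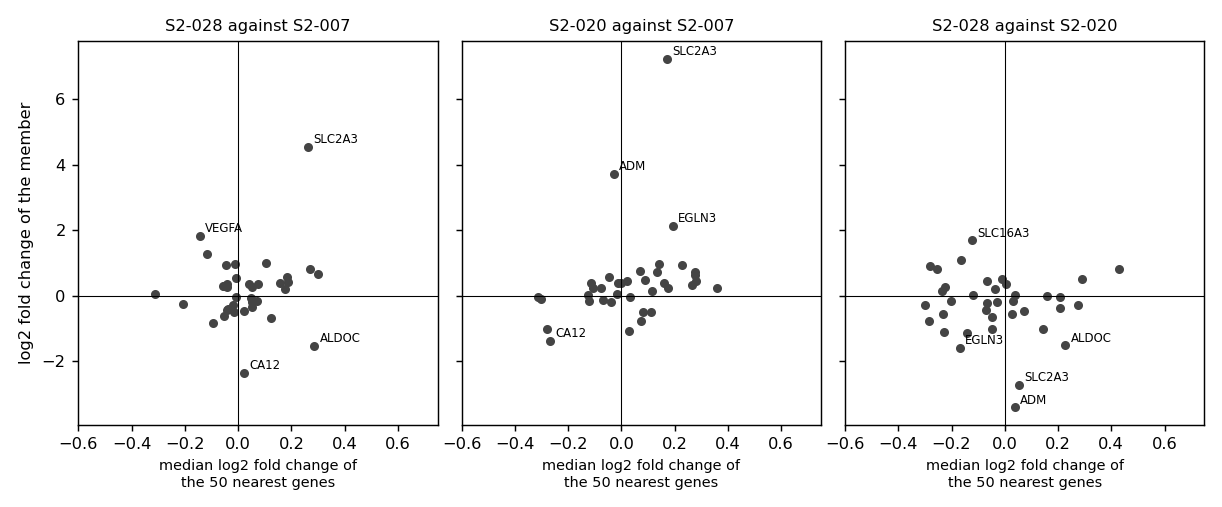
Log2 fold change of each member (vertical axis) against the median of its 50 nearest genes tested (horizontal axis) in the 3 comparisons (panels), with the members of largest change named. The medians lie between -0.31 and 0.43, whereas SLC2A3, ADM, VEGFA and CA12 lie far above or below them in at least 1 comparison.

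Other genes of the pathways were taken from 3 further lists. Of 37 other glycolytic isoenzymes and connected routes, 34 were tested, with 5 higher and 6 lower calls in S2-028 against S2-007, 6 and 6 in S2-020 against S2-007, and 8 and 8 in S2-028 against S2-020. Over all genes, 10.2% were called higher and 8.19% lower in the first of these comparisons, 9.57% and 12.1% in the second, and 12.1% and 10.1% in the third. FBP1, the gluconeogenic fructose bisphosphatase that opposes phosphofructokinase, averaged 159 ± 7.60 CPM in S2-007, 2.30 ± 0.0968 in S2-020 and 38.1 ± 5.10 in S2-028. It was lower in S2-020 than in S2-007 (log2 fold change -6.15 ± 0.08, edgeR adjusted p = 3.50e-21). SLC2A2, a further glucose carrier, was called higher in S2-028 than in S2-007 (4.15 ± 0.18, edgeR adjusted p = 9.23e-14).

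The oxygen sensing list held 15 further genes. Of these, 1 was called higher and 0 lower in S2-028 against S2-007, 4 higher and 0 lower in S2-020 against S2-007, and 0 higher and 2 lower in S2-028 against S2-020, against 18.4%, 21.6% and 22.2% of all genes called in either direction. Nothing particular to the list is read from these counts. The 4 higher in S2-020 than in S2-007 were CITED2, SIAH2, EGLN2 and ARNT2. CITED2, which competes with HIF for its coactivator, averaged 25.6 ± 3.07, 80.2 ± 8.76 and 43.6 ± 5.89 CPM for S2-007, S2-020 and S2-028. EGLN2, a further HIF hydroxylase, averaged 25.4 ± 1.14, 45.1 ± 3.93 and 35.1 ± 1.33 CPM.

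Among 33 further hypoxia targets, calls went both ways, 8 higher and 4 lower of 32 tested in S2-028 against S2-007, 9 and 5 of 33 in S2-020 against S2-007, and 5 and 6 of 33 in S2-028 against S2-020, beside 10.2% and 8.19%, 9.57% and 12.1%, and 12.1% and 10.1% of all genes. LOX, which crosslinks collagen, averaged 1.39 ± 0.300, 38.01 ± 3.13 and 4.53 ± 1.31 CPM for S2-007, S2-020 and S2-028. STC2, a secreted glycoprotein, averaged 38.9 ± 8.74, 199.5 ± 7.34 and 38.4 ± 6.76 CPM. Both were called higher in S2-020 than in S2-007, LOX with a log2 fold change of 4.74 ± 0.13 (edgeR adjusted p = 1.14e-16) and STC2 with 2.33 ± 0.10 (edgeR adjusted p = 1.28e-13). IGFBP3 moved the other way, at 83.0 ± 6.89 CPM in S2-007 against 11.2 ± 0.856 in S2-020 and 11.0 ± 1.95 in S2-028, and AK4 averaged 5.58 ± 1.78, 21.95 ± 1.85 and 40.2 ± 1.75 CPM.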

How the data were processed

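The data were 9 RNA-seq libraries, 3 of each subline, grouped by the line that each label names. Reads were trimmed with Trimmomatic 0.39 and aligned with BWA 0.7.17 to GRCh38.p14, per the submitters' processing notes. The authors deposited counts of mapped reads per gene, as whole numbers without normalization. The counting tool and its treatment of strand and of reads with several matches are not given in the sources used here, and BWA does not join reads across introns. A further 18 columns of normalized values were not used, and 2 lines that name no gene were left out.

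Counts were tested in R 4.3.3 with edgeR 4.0.16 (glmQLFit and glmQLFTest after TMM normalization), each fit holding the 6 libraries of 2 lines. The filter on low counts was filterByExpr (minimum count 10, minimum total 15). P-values were adjusted by the Benjamini-Hochberg method over all genes tested, and a call needed an adjusted p under 0.05 together with a difference of at least 1.5-fold, the thresholds of the study. The SE printed with an edgeR log2 fold change is the size of that change divided by the square root of its quasi-likelihood F statistic. The submitters' notes name edgeR 3.16.5. Printed CPM use TMM factors of all 9 libraries, so their ratios can differ slightly from a fold change. Ratios of related members were compared by a two-sided exact permutation test (scipy 1.17.1). The procedure was tested on simulated data. Transcript lengths are those of MANE Select transcripts in GENCODE 44. Of the gene identifiers, 42539 (99.6%) were found in RefSeq. Alternatives were RLE and upper-quartile factors, DESeq2 1.42.0, the likelihood ratio test, a test against a 1.5-fold change, other filters, all 9 libraries in one fit, a replicate block, added pseudogene counts and leaving out each library.

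The members and the other lists were chosen with earlier results of these data known. All 38 members are named, and of each other list at most 4 called genes per comparison, those with the smallest adjusted p. Results that need some further genes are left out here.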

Additional observations from a re-analysis of the deposited data

How the results depend on the processing

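The number of members called was 10, 10 and 13 for S2-028 against S2-007, S2-020 against S2-007 and S2-028 against S2-020 when the null was a 1.5-fold change, and 13 to 15 under every other alternative with all libraries kept. Leaving out each library gave 13 to 14, 13 to 14 and 14 to 15 members. Over all genes, leaving out a library gave 4641 to 4828, 5488 to 5791 and 5507 to 5723 calls, and the test against a 1.5-fold change gave 2977, 3639 and 3638 in place of 4858, 5769 and 5788. The test against a 1.5-fold change is stricter by construction.

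Upper-quartile factors turned the sign of 3 small differences that were not called, to -0.0038 for BNIP3 (S2-020 against S2-007), 0.029 for EPAS1 and 0.0074 for PGAM1 (both S2-028 against S2-020), and the cause was not tested. Leaving out a library turned the sign of further differences that were not called, with ranges of -0.034 to 0.13 for PFKP and -0.43 to 0.058 for ANKRD37 (S2-028 against S2-007), of -0.13 to 0.058 for ALDOC, -0.018 to 0.071 for BNIP3, -0.098 to 0.090 for HK2 and -0.0066 to 0.12 for PDK1 (S2-020 against S2-007), and of -0.027 to 0.071 for BNIP3L, -0.092 to 0.068 for EPAS1 and -0.095 to 0.22 for NDRG1 (S2-028 against S2-020). Among the pairs, the ranges were -0.086 to 0.063 for PFKM over PFKL (S2-028 against S2-007), -0.26 to 0.13 for PFKFB4 over PFKFB3 (S2-028 against S2-020), and -0.021 to 0.030 for LDHB over LDHA and -0.22 to 0.013 for EPAS1 over HIF1A (S2-020 against S2-007). GPI (S2-028 against S2-020) was called without S2-020 replicate 2, at -0.59.

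The EGLN3 call between S2-028 and S2-007 was also lost with RLE factors (0.577), upper-quartile factors (0.583), DESeq2 (0.577), all 9 libraries in one fit (0.582) and the replicate block (0.574), the PFKFB3 call between S2-020 and S2-007 with upper-quartile factors (0.571), the likelihood ratio test and no filter on low counts (both 0.58), and the ANKRD37 call between S2-028 and S2-020 with DESeq2 (adjusted p = 0.0537) and the replicate block (edgeR adjusted p = 0.0632).

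Deviations from the line means correlated at -0.0219 to 0.0140 between libraries of the same number in different lines. Between libraries of unlike number the range was -0.0217 to 0.0312. Whether libraries of the same number shared a batch cannot be told from this, because counting error of low genes enters these correlations. With the replicate number as a block, 13, 14 and 14 members and 4865, 5650 and 5716 genes were called in the 3 comparisons, and NDRG1 (S2-028 against S2-020) turned to -0.0011. Named pseudogenes added to a parent changed no call, and no pair holds a gene they touch. With 3 libraries per line, differences under 1.5-fold between low genes such as ANKRD37 were not resolved.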
